A study of Homo sapiens with 4 samples.

Results

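The Notch genes described here are 10 of the 26255 gene symbols in the deposited table, taken by symbol. They are the receptor genes NOTCH1, NOTCH2 and NOTCH3, the ligand genes JAG1, JAG2 and DLL1, and the target genes HES1, HES4, HEY1 and NRARP. RNA was sequenced from A549, a long-established cell line from a human lung adenocarcinoma, in 4 libraries with 1 library per group. The groups are acinar-type and solid-type tumor cells cut by laser microdissection from A549 xenografts in mice, and GFP-labelled A549 cells sorted from 3D colonies grown with cancer-associated fibroblasts (CAFs, titled mix culture) or without them (titled single culture). The word mix in the title was read as growth with CAFs. An acinar tumor forms gland-like structures and a solid one grows as sheets. Xenografts also hold mouse host cells, and the sources used here give neither the origin of the CAFs, nor the strain, age and number of mice, nor how mouse fragments were treated. The acinar against solid comparison asks how the tumor types differ, and the mix against single comparison what growth with CAFs does to A549 cells.

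Notch is a receptor that is cut when it binds a ligand on a neighbouring cell. ADAM proteases and then γ-secretase release its intracellular part, which joins the DNA-binding protein RBPJ in the nucleus and switches on repressor genes of the HES and HEY families. In the airway epithelium the pathway is known for favouring secretory over ciliated and neuroendocrine fates.

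Values are scaled counts, which are the authors' library-normalised fragment counts divided by 1 constant common to all libraries, so that the mean library total is 1000000. They are not divided by gene length. The estimated depth was 6632977 fragments in the acinar tumor, 7265468 in the solid tumor, 12184273 in the mix culture and 10965221 in the single culture. No group has a replicate, so differences could not be set against replicate spread and no p-values were computed. Intervals are exact 95% intervals for counting error alone, and they leave out any difference between tumors, mice or cultures. A gene counted as measured when it reached 1 scaled count in at least 1 library of a comparison, and as past 2-fold on the scale of log2(scaled count + 1). All 8 A549 markers were at 1 or more in every library, although EPCAM was at 2.09 in the mix and 2.31 in the single culture. In these bulk samples fewer cells of a type and less RNA per cell cannot be told apart.

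Between the tumor types the receptor genes parted. NOTCH3 was 7.02-fold lower in the acinar tumor, NOTCH1 was higher by less than 2-fold and NOTCH2 was nearly equal. The target gene HEY1 was also lower in the acinar tumor, while HES4 was higher and HES1 was close to equal. Of the 9 measured members, NOTCH3 and HEY1 (2 genes) were past 2-fold lower, against 2.55% of all 13979 genes compared, and 0 were past 2-fold higher, against 1.98% (4.54% of genes in either direction). The low NOTCH3 level was known when the genes were chosen, so the lower count is a description and no measure of an excess. HEY1, the other gene in it, rests on 6 and 25 fragments. The median log2 ratio of the measured members was -0.02, beside 0.01 over all genes. DLL1 was not measured.

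NOTCH3, a receptor best known from smooth muscle and pericytes and also expressed in carcinomas, had 4.19 scaled counts in the acinar tumor, 29.4 in the solid tumor, 43.6 in the mix culture and 31.6 in the single culture. The acinar library stood alone as low, and the solid tumor lay next to the single culture. The acinar value rests on 27 fragments and the solid one on 210, which gives a 7.02-fold lower level with an interval of 4.69 to 10.9. This difference was known when the genes were chosen, so it is given as a description. On the log2 scale the difference was -2.55, and 17 of the 13979 genes compared (0.122%) were at or below it.

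NOTCH1, the receptor with the widest developmental roles, had 25.9 scaled counts in the acinar tumor, and 18.6 in the solid tumor, a ratio of 1.39 (interval 1.10 to 1.76). NOTCH2 was at 52.4 in the acinar tumor and 53.1 in the solid tumor, 1.01-fold lower with an interval (0.873 to 1.18) that includes no difference. NOTCH2 shares near-identical sequence with its partial copy NOTCH2NL, which was at 15.3, 16.4, 12.4 and 15.1 scaled counts in the acinar, solid, mix and single libraries, so the split of fragments between them is uncertain. The remaining receptor gene, NOTCH4, was low, at 1.86 in the acinar and 1.54 in the solid tumor.

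The share of each receptor within a library does not depend on the scaling between libraries. NOTCH3 made up 5.08% of the NOTCH1, NOTCH2 and NOTCH3 fragments in the acinar tumor (27 of 532, Clopper-Pearson interval 3.37 to 7.30%) and 29% in the solid tumor (210 of 723, 25.8 to 32.5%). It made up 21.9% in the mix culture (20.2 to 23.5%) and 14.6% in the single culture (13.2 to 16%). NOTCH1 took 31.4% in the acinar tumor (27.5 to 35.5%) and 18.4% in the solid tumor (15.6 to 21.4%). The acinar tumor thus had the lowest NOTCH3 share and the highest NOTCH1 share of the 4 libraries. The NOTCH3 difference between the tumors was known when the genes were chosen, so its share restates that difference as a description. Shares within a library depend on each other, so the low NOTCH3 share by itself raises the NOTCH1 share in the acinar tumor.

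To compare levels between genes, scaled counts were divided by exon length from GENCODE release 29, which is not the authors' annotation. Per kilobase of joined exons the receptors in the acinar tumor stood at 3.26 for NOTCH2, 2.78 for NOTCH1 and 0.483 for NOTCH3. In the solid tumor NOTCH3 (3.39) and NOTCH2 (3.31) were close and NOTCH1 was at 2.0. With the length of the longest transcript NOTCH2 was at 4.67 in the solid tumor, above NOTCH3, so the order of these 2 genes there depends on the length used. In the cultures NOTCH2 led, at 7.87 per kilobase in the mix and 9.33 in the single culture.

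**Figure D1:**
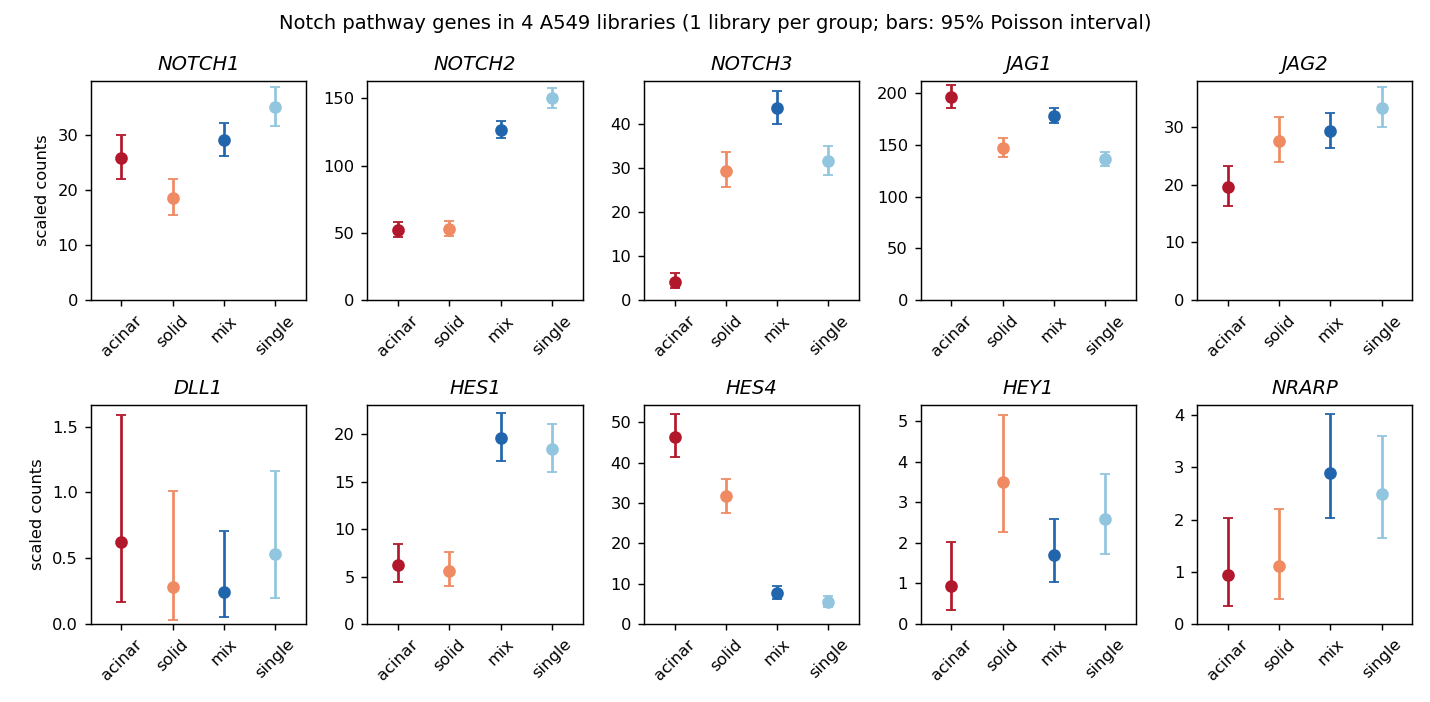
Scaled counts of the 10 Notch genes (y axis, from 0) in the acinar tumor, solid tumor, mix culture and single culture libraries, with 95% Poisson intervals for counting error. NOTCH3 is low in the acinar tumor alone (4.19 against 29.4 in the solid tumor), while HES4 is high and HES1 and NOTCH2 are low in both tumors.

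**Figure D2:**
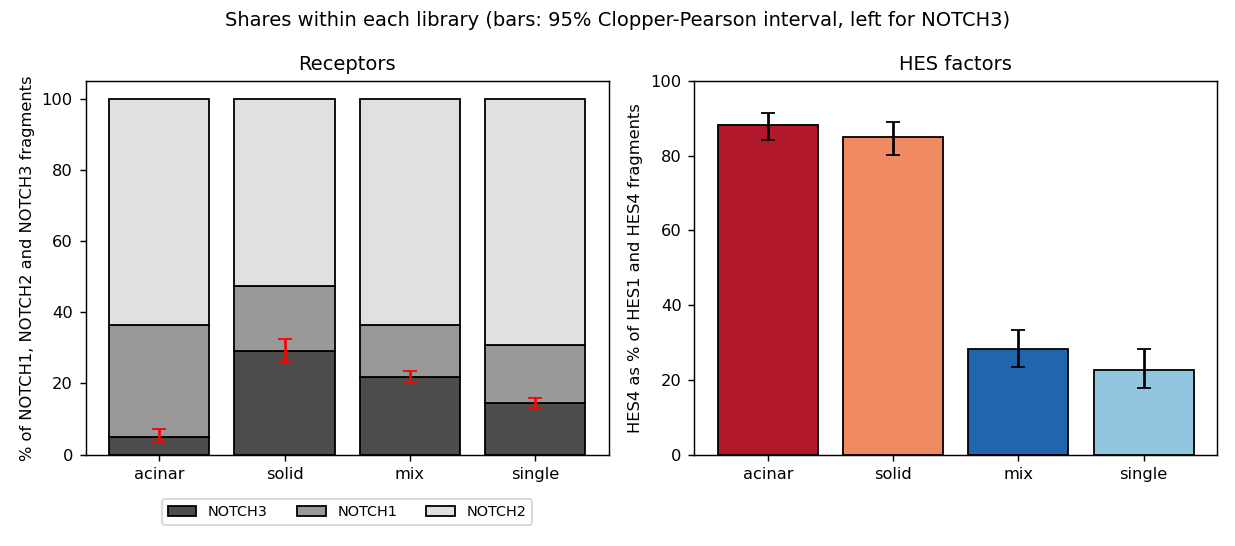
Left, percent of NOTCH1, NOTCH2 and NOTCH3 fragments that each receptor takes in a library, with the Clopper-Pearson interval of the NOTCH3 share. Right, HES4 as a percent of the HES1 and HES4 fragments; NOTCH3 is at 5.08% in the acinar tumor, against 29% in the solid tumor, and HES4 is above 80% in both tumors and below 30% in both cultures.

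Among the ligands, JAG1 was the most abundant in every library. JAG1, a ligand carried by neighbouring cells, had 196 scaled counts in the acinar tumor, and 147 in the solid tumor (ratio 1.34, interval 1.23 to 1.45). JAG2, its close relative, was at 19.5 in the acinar tumor and 27.5 in the solid tumor, 1.41-fold lower (1.12 to 1.78). The jagged pair therefore differed in opposite directions, and JAG1 took 91.0% of the JAG1 and JAG2 fragments in the acinar tumor (89.3 to 92.4%) and 84.2% in the solid tumor (82.1 to 86.2%). DLL1, a delta-type ligand, had 4 estimated fragments in the acinar tumor, 2 in the solid tumor, 3 in the mix and 6 in the single culture, too few for a comparison at this depth. It also overlaps FAM120B on the opposite strand, and no source used here gives the strand setting of the counting. Per kilobase of joined exons JAG1 was at 33.1 in the acinar and 24.7 in the solid tumor, JAG2 at 3.35 and 4.72, and DLL3, a delta-type family member known from neuroendocrine tumors, at 2.26 and 1.92.

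The targets showed no common direction. HES1, a repressor and the textbook Notch target, had 6.20 scaled counts in the acinar tumor, and 5.59 in the solid tumor, with 40 fragments in each (ratio 1.11, interval 0.697 to 1.76). HES4, a related repressor gene that mice lack, was at 46.4 in the acinar tumor and 31.6 in the solid tumor (ratio 1.47, 1.23 to 1.75). HEY1, a repressor of the related HEY family, was at 0.930 in the acinar tumor and 3.50 in the solid tumor. Those values are 6 and 25 fragments, so the 3.76-fold lower level has a wide interval, 1.5 to 11.2. On the log2 scale the difference was -1.22, and -0.52 with a pseudocount of 5, which is no longer past 2-fold. NRARP, which encodes a feedback inhibitor that binds the Notch nuclear complex, was at 0.930 in the acinar and 1.12 in the solid tumor on 6 and 8 fragments, and no difference was detectable at this depth (1.20-fold lower, 0.366 to 4.21). Counting intervals excluded a ratio of 1 for 6 of the 9 measured members (3 above and 3 below), against 35.1% of all genes with whole fragments (18.4% above and 16.7% below), a share that depends on how abundant a gene is.

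HES1 and HES4 are shown by sequence because they are the target genes whose levels part most between tumors and cultures, as given further on. The 250 bases before each RefSeq start (GRCh38.p14) lie at chr3:194135898-194136147 on the plus strand for HES1 and chr1:1000098-1000347 on the minus strand for HES4. Capitals mark matches to GTGNGAA, a core of the RBPJ binding sequence, on either strand, of which GTGGGAA is 1 form and TTCACAC the reverse complement of another.
HES1: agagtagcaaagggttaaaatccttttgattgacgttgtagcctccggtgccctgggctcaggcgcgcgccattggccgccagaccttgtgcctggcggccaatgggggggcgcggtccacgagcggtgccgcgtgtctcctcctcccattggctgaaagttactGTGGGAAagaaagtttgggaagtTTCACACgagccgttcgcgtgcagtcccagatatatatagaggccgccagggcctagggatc
HES4: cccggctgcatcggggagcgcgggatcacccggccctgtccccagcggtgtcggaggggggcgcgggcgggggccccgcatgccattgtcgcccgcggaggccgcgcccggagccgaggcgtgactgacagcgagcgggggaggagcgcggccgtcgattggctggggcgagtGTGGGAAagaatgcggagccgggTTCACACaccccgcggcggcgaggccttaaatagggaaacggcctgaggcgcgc
Each has GTGGGAA, starting 85 bases before the start in HES1 and 77 in HES4, and then TTCACAC, so that the matches face each other with 16 bases between them and do not overlap. A match to GTGGGAA on either strand was present in 5.43% of the 35116 promoter windows of this length, and one to GTGNGAA in 11.6%. A facing pair of GTGNGAA with 14 to 17 bases between was present in 4 windows (0.0114%), the others being those of ITIH4 and PLPPR5-AS1; the spacing was chosen with the HES1 site known. Of the 10 members 8 have an entry, and NOTCH1, NOTCH2, NOTCH3, JAG1, JAG2 and NRARP had no match to GTGNGAA in this window. DLL1 and HEY1 were not matched. A match is a description of letters and does not show binding.

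**Figure D3:**
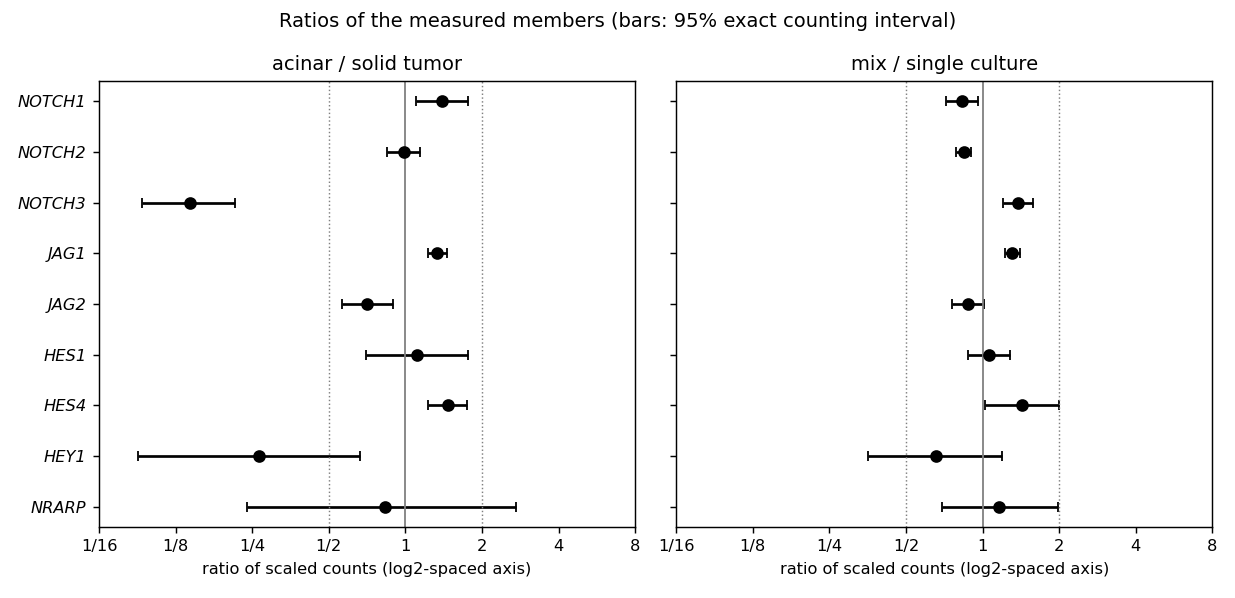
Ratios of scaled counts of the 9 measured members (x axis, log2-spaced) for acinar over solid tumor (left) and mix over single culture (right), with 95% counting intervals and dotted lines at 2-fold. NOTCH3 is 7.02-fold lower in the acinar tumor and 1.38-fold higher in the mix culture, and JAG1 and HES4 are above 1 in both comparisons.

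The rest of the pathway was described by 8 lists with 63 genes, of which 59 were measured between the tumors. Their median log2 ratio was 0.08, beside 0.01 over all genes. Past 2-fold were 2 on the higher side and 0 on the lower side, against 1.98% and 2.55% of all genes compared. NEURL1B, encoding a ubiquitin ligase of Notch ligands, had 7.91 scaled counts in the acinar tumor, and 2.38 in the solid tumor (ratio 3.33, interval 1.89 to 6.14). HES6, a HES family member known to oppose HES1 in mouse neural cells, was at 32.1 in the acinar tumor and 13 in the solid tumor (2.47, 1.92 to 3.19). All 9 receptor cleavage genes, ADAM10 and the γ-secretase subunits among them, lay between -0.05 and 0.40 on the log2 scale. The 8 genes of the nuclear complex and its coactivators lay between -0.40 and 0.28, and RBPJ was at 50.2 in the acinar and 61.0 in the solid tumor.

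Markers of other cells were set beside the NOTCH3 difference, since mural cells of vessels express this receptor. Of 8 mural cell markers 6 were measured, and 0 were past 2-fold on the log2(scaled count + 1) scale, against 4.54% of all genes in either direction. All of the 6 but ACTA2 were low in both tumors, and at low values the added 1 draws a ratio toward equality. The 8 summed to 11.6 scaled counts in acinar and 15.1 in solid tissue, and to 31.8 in the mix and 34.9 in the single culture. ACTA2, with fractional values, was the largest part of the tumor sums, at 7.27 in the acinar and 5.80 in the solid tumor. MCAM and ACTA2 made up most of the culture sums, at 15.0 and 13.3 in the mix and 9.24 and 21.4 in the single culture. The median log2 ratio of the 6 was -0.59, with ACTA2 above 0 and 5 below 0. RGS5 had 2 fragments in the acinar and 11 in the solid tumor, 4.96-fold lower by plain ratio (interval 1.08 to 46.1). PDGFRB, the defining mural marker, had 0 fragments in the acinar tumor and 1 in the solid tumor. CSPG4 had 13 and 21 (1.46-fold lower, 0.696 to 3.17) and KCNJ8 had 3 and 11 (3.31-fold lower, 0.874 to 18.5). Both intervals include no difference. MYH11, with fractional values, was at 0.480 in the acinar and 1.72 in the solid tumor, 3.58-fold lower by plain ratio. MCAM was nearly equal, at 1.09 and 1.12. All 8 endothelial markers were below 1 in all 4 libraries, with sums of 1.55 in the acinar and 1.68 in the solid tumor. Fibroblast markers summed to 88.8 in the acinar and 54.0 in the solid tumor. Of 4 measured, LUM (55.4 and 19.6) and FAP (14 and 3 fragments) were past 2-fold higher, against 1.98% of all genes compared. COL1A1 (30.7 and 32.3) and COL3A1 (2 and 8 fragments) lay below 0 on the log2 scale. COL6A3, PDGFRA, POSTN and THY1 were at 0 in both tumors, and COL1A2 and DCN each had 1 and 2 fragments. Leukocyte markers summed to 146 in the acinar and 239 in the solid tumor, with CD14 at 2.64 and 9.65 and LYZ at 23.9 and 49.4. Most of that sum was CD68, at 113 in the acinar and 175 in the solid tumor, and the sorted A549 cells also showed this gene, at 26.8 in the mix and 29.5 in the single culture. CD14 was higher in the cultures than in either tumor, at 13.4 in the mix and 15.4 in the single culture. Of 5 measured leukocyte markers 3 lay below 0 and 2 above. Those above were PTPRC, at 1.40 in the acinar and 1.26 in the solid tumor, and ITGAM, at 4.03 and 3.22. The part of other cells in the Notch differences was not tested.

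Growth with CAFs went with small differences in the Notch genes. NOTCH3, JAG1 and HES4 were higher in the mix culture and NOTCH1 and NOTCH2 lower, each by less than 2-fold. Of the 9 measured members 0 were past 2-fold, against 0.682% of all 13485 genes compared on the higher side, 1.74% on the lower side and 2.42% in either direction. Counting intervals excluded 1 for these 5 members (3 above and 2 below), against 43.8% of genes with whole fragments (23.4% above and 20.4% below). The median log2 ratio of the measured members was 0.08, beside 0.01 over all genes.

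NOTCH3 was at 43.6 scaled counts in the mix and 31.6 in the single culture (ratio 1.38, interval 1.21 to 1.58). NOTCH1 was at 29.1 in the mix and 35.1 in the single culture, 1.20-fold lower (1.04 to 1.39). NOTCH2 was at 127 in the mix and 150.0 in the single culture, 1.19-fold lower (1.11 to 1.27). NOTCH3 thus differed one way and the other receptors the opposite way, in the reverse of the pattern between the acinar and solid tumors for NOTCH1 and NOTCH3. Whether the comparisons differ from each other was not tested.

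JAG1 was at 178 in the mix and 136 in the single culture (ratio 1.31, 1.23 to 1.40), close to its ratio between the tumors. JAG2 was at 29.2 in the mix and 33.3 in the single culture, with an interval that includes no difference (1.14-fold lower, 0.984 to 1.32). Among other ligand genes DNER, encoding a transmembrane protein reported as a Notch ligand in mouse cerebellum, was at 10.4 in the mix and 4.62 in the single culture (2.25, 1.62 to 3.16). DLL3 was at 11.1 in the mix and 7.11 in the single culture (1.56, 1.18 to 2.09), and DLL4, a delta-type ligand of vessels, at 3.22 in the mix and 1.51 in the single culture (2.13, 1.18 to 4.01). All 5 measured genes of the list of other receptors and ligands lay above 0 on the log2 scale. They are 4 genes listed as ligands and the receptor gene NOTCH4. Their median was 0.58, beside 0.01 over all genes, and 1 was past 2-fold higher, against 0.682% of all genes compared. For DLK2 the interval includes no difference (ratio 1.13, 0.785 to 1.64), and NOTCH4 has no interval because its single culture value was fractional.

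The targets again gave no common direction. HES1 was at 19.6 in the mix and 18.4 in the single culture (ratio 1.06, interval 0.880 to 1.29). HES4 was at 7.73 in the mix and 5.42 in the single culture (1.43, 1.02 to 2.0). HEY1 was at 1.69 in the mix and 2.58 in the single culture on 21 and 29 fragments (1.52-fold lower, 0.840 to 2.81). NRARP was at 2.90 in the mix and 2.49 in the single culture on 36 and 28 fragments (1.16, 0.691 to 1.98). At these depths HES1, HEY1 and NRARP showed no detectable difference. In the rest of the pathway 58 of 63 genes were measured, with a median of 0.01. DNER was the 1 gene past 2-fold higher and TLE4 the 1 past 2-fold lower, against 0.682% and 1.74% of all genes compared. TLE4, a Groucho corepressor that HES proteins recruit, was at 9.58 in the mix and 23.1 in the single culture (2.41-fold lower, 1.93 to 3.02). Its relatives TLE2, at 11.2 and 20.9 (1.87-fold lower, 1.51 to 2.32), and TLE3, at 44.3 and 55.9 (1.26-fold lower, 1.12 to 1.42), were also lower. TLE1 went the other way, at 111 and 73.0. Because CAFs were in the mix culture, fibroblast markers were read there too: they summed to 33.7 scaled counts in the mix and 23.3 in the single culture, with COL1A1 at 29.5 and 19.3 and DCN, FAP and POSTN at 0 in both. Their part in these differences was not tested.

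**Figure D4:**
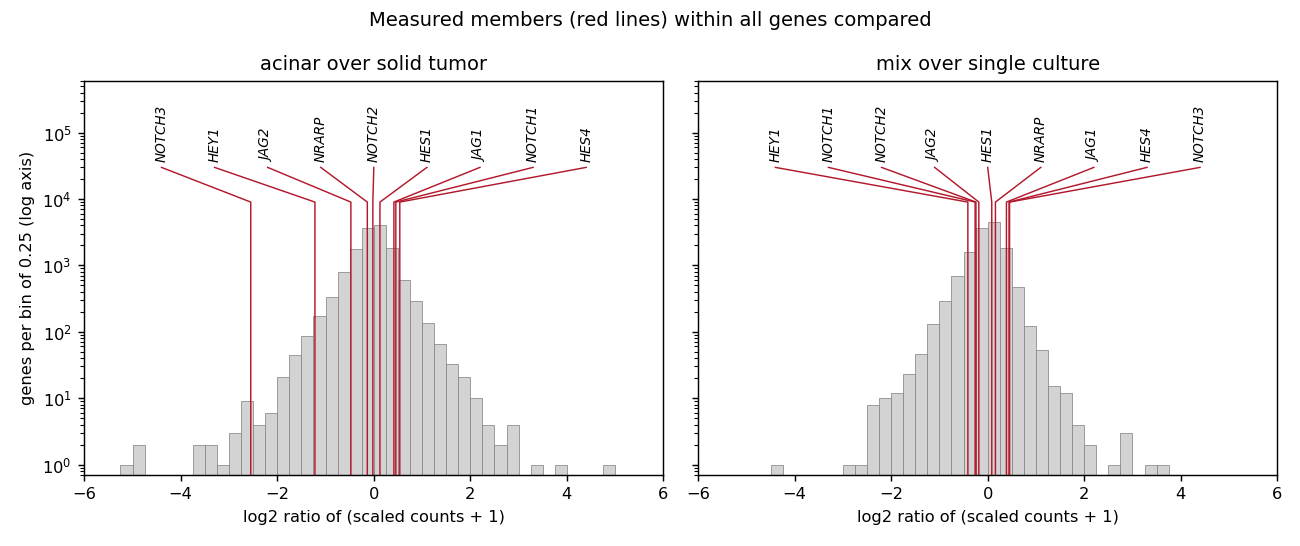
Number of genes (y axis, log scale) by log2 ratio of (scaled counts + 1) for acinar over solid tumor (left) and mix over single culture (right), with red lines at the 9 measured members. NOTCH3 at -2.55 and HEY1 at -1.22 lie in the lower tail between the tumors, and all members lie between -0.41 and 0.45 between the cultures.

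The last comparison sets the xenografts beside the 3D cultures. In both tumor libraries HES4 and the fringe genes LFNG and MFNG were several-fold higher than in either culture, and HES1, NOTCH2 and NRARP were lower. The tumor libraries are different tumor types and the cultures different conditions, so neither pair is a pair of replicates, and values are given as the range of the 4 ratios of a tumor library over a culture library. Host tissue, dissection against sorting, and depth differ between the settings as well and cannot be told apart from growth as a tumor. Past 2-fold in all 4 ratios were 1 of the 9 measured members on the higher side, against 9.67% of 14561 genes, and 2 on the lower side, against 8.22% (17.9% in either direction). Both tumor libraries lay above both cultures for 1 member, against 39.8% of genes, and below both for 6, against 38.7%.

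HES4 was 4.09-fold to 8.55-fold higher in the tumors, at 46.4 in the acinar and 31.6 in the solid tumor, against 7.73 in the mix and 5.42 in the single culture. HES1 was 2.97-fold to 3.50-fold lower in the tumors, at 6.20 and 5.59, against 19.6 in the mix and 18.4 in the single culture. The HES4 values of the tumors lay above both cultures and the HES1 values below both, and the promoters of both genes, printed above, hold the facing pair of matches. HES4 made up 88.2% of the HES1 and HES4 fragments in the acinar tumor (interval 84.3 to 91.4%) and 85.0% in the solid tumor (80.1 to 89.0%), against 28.3% in the mix culture (23.6 to 33.4%) and 22.8% in the single culture (17.9 to 28.3%). Per kilobase of joined exons HES4 was above HES1 in both tumors (44.6 against 3.93 in the acinar tumor) and below it in both cultures (7.43 against 12.4 in the mix culture).

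NRARP was 2.22-fold to 3.12-fold lower in the tumors by plain ratio, on 6 and 8 fragments, and not past 2-fold in all 4 ratios on the log2(scaled count + 1) scale. The interval of the solid over single ratio (0.177 to 1.01) includes no difference. HEY1 gave no order, since the solid tumor was above both cultures and the acinar tumor below both. NOTCH2 was 2.38-fold to 2.86-fold lower in the tumors. NOTCH1 was 1.13-fold to 1.89-fold lower, and the interval of its acinar over mix ratio (0.735 to 1.07) includes no difference. NOTCH3 was below both cultures in both tumors, but unevenly. The acinar tumor had 0.0961 times the mix level and 0.133 times the single level, and the solid tumor 0.674 times the mix level (0.572 to 0.792) and 0.931 times the single level (0.781 to 1.11, which includes no difference). JAG2 was 1.06-fold to 1.71-fold lower, and the interval of its solid over mix ratio (0.788 to 1.12) likewise includes none. JAG1 lay between 0.825 and 1.45 times the culture level, with the tumors and cultures overlapping.

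**Figure D5:**
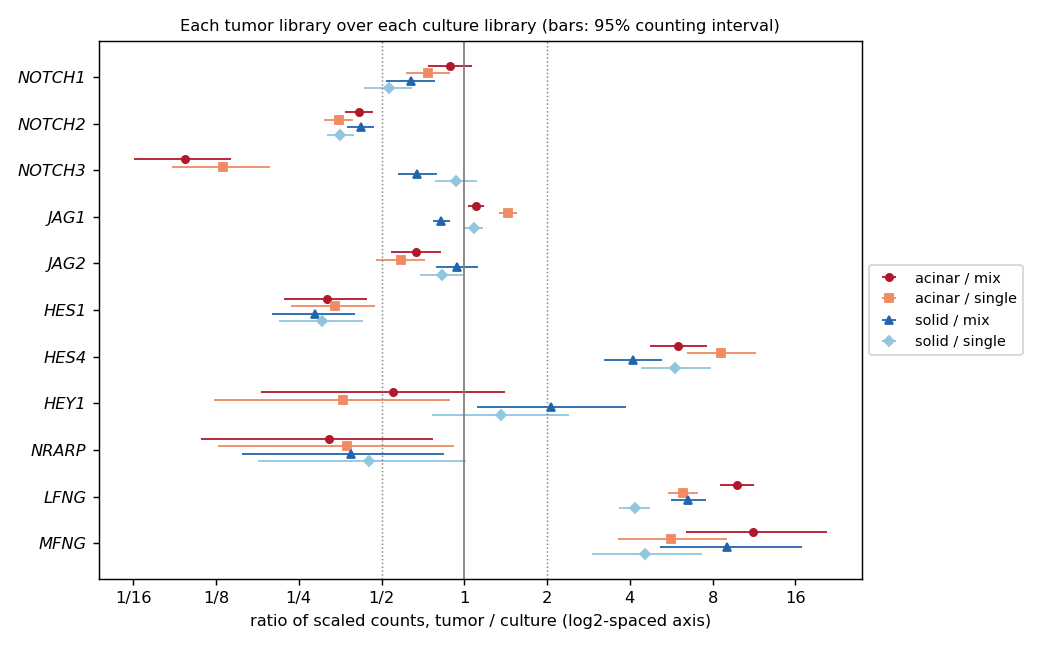
Ratio of scaled counts of each tumor library over each culture library (x axis, log2-spaced; marker shape gives the pairing) for the 9 measured members and the fringe genes LFNG and MFNG, with 95% counting intervals. All 4 ratios of HES4, LFNG and MFNG are above 4 and all 4 of HES1 and NOTCH2 are below 0.42, while for NOTCH3 the acinar ratios alone are far below 1.

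Of the 59 measured genes of the other pathway lists, 4 were past 2-fold higher in all 4 ratios and 4 lower, beside 9.67% and 8.22% of all genes, so these lists held no larger share of such genes than the table as a whole. Fringe enzymes add sugar to Notch and so set which ligands it answers to, and in the mammalian family lunatic fringe is known to favour delta-type over jagged ligands at NOTCH1. LFNG, lunatic fringe, was at 176 in the acinar and 118 in the solid tumor, against 18.0 in the mix and 28.3 in the single culture (4.16-fold to 9.78-fold higher in the tumors). MFNG, manic fringe, was at 13.5 and 10.9 in the tumors, against 1.21 in the mix and 2.40 in the single culture (4.55-fold to 11.2-fold). LFNG was also 1.5 times the solid level in the acinar tumor (interval 1.37 to 1.64) and 1.57-fold lower in the mix than in the single culture (1.32 to 1.87). RFNG, radical fringe, differed less, at 52.1 in the acinar and 47.3 in the solid tumor, against 34.9 in the mix and 32.0 in the single culture (1.36-fold to 1.63-fold higher in the tumors). DTX1, a ubiquitin ligase that binds Notch, was at 5.43 in the acinar and 3.50 in the solid tumor, against 1.05 in the mix and 1.16 in the single culture, and CIR1, an RBPJ corepressor, was 2.09-fold to 2.29-fold higher in the tumors. Lower in the tumors were the protease gene ADAM17 (2.36-fold to 2.90-fold), the coactivator genes EP300 (2.64-fold to 2.94-fold) and KAT2B (2.45-fold to 3.90-fold), and the xylosyltransferase gene XXYLT1 (2.12-fold to 3.76-fold). Marker levels differed between the settings too: leukocyte markers summed to 146 in the acinar and 239 in the solid tumor, against 44.0 in the mix and 49.9 in the single culture, and EPCAM was at 28.1 and 20.3 in the tumors, against 2.09 and 2.31 in the cultures. Of 6 measured fibroblast markers 1 was past 2-fold higher in all 4 ratios and 2 were lower, against 9.67% and 8.22% of all genes. The higher one, LUM, had 357 fragments in the acinar and 140 in the solid tumor, against 1 in the mix and 0 in the single culture. PDGFRA and THY1 had 0 fragments in both tumors, against 14 and 25 in the mix and 22 and 15 in the single culture. Their part was not tested. ADAM10, the main protease of ligand-bound Notch, was at 160 in the acinar and 157 in the solid tumor, against 179 in the mix and 224 in the single culture.

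Airway fate genes were mostly near 0. The club cell markers summed to 0 in the acinar tumor and 1.68 scaled counts in the solid tumor, and to 0.0805 in the mix and 2.22 in the single culture, where SCGB1A1 had 21 fragments. The neuroendocrine regulators INSM1 and NEUROD1 were at 0 in all 4 libraries. Of the ciliated cell genes DNAI1 was at 0 in all 4 libraries and FOXJ1 had at most 3 fragments, while DNAH5, a motor gene of motile cilia, was at 8.37 in the acinar and 11.7 in the solid tumor, against 1.13 in the mix and 3.91 in the single culture. The basal cell regulator gene TP63 was higher in the tumors, at 38.3 in the acinar and 12.2 in the solid tumor, against 1.69 in the mix and 2.31 in the single culture. The other basal cell genes were low and gave no common direction. KRT5 had 4 fragments in the acinar and 5 in the solid tumor, against 2 in the mix and 0 in the single culture. NGFR had 0 and 1 in the tumors, against 4 and 6 in the cultures. KRT14 had 16 fragments in the acinar tumor and 0 in each other library.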

How the data were processed

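The authors deposited 1 table with a signal value per gene and library, called raw signal per the file headers. Tools listed by the submitters' processing notes, without roles, are Cuffdiff 2.2.1, SAMtools 1.0, TopHat2 2.0.13 and Bowtie2 2.2.3, and the build is hg19. No source used here gives the annotation, filters or strand. Between 90.0% and 91.2% of values above 0 were whole multiples, within 0.05, of 1 step per library, taken as 1 fragment. All values of the 10 Notch genes were whole. Because other values were fractional, no count model was fitted. Values were divided by 8.94 to give scaled counts. Printed ratios and folds are plain ratios of scaled counts. Log2 ratios and the 2-fold calls used a pseudocount of 1 and genes at 1 or more. Intervals are 95% Clopper-Pearson (ratios, shares) or Poisson, unadjusted for the number of genes, and cover counting error only, since fragments counted without molecular identifiers may be copies of each other. Calls between the tumors and between the cultures were tested on simulated data. Python 3.11.15 with scipy 1.17.1 was used, and promoters came from RefSeq (GRCh38.p14). The members and lists were chosen with earlier results of these data known. Named beyond the members are list genes past 2-fold and at 5 or more, levels of further ligands, receptors and pathway genes, and the 5 genes nearest NOTCH3. NOTCH2NL, TLE1, TLE2, TLE3, DNAH5, RFNG, marker genes below those limits and genes at 0 were named after their values were seen. Alternatives changed the pseudocount, the filter, the scaling and the use of fractional values.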

Additional observations from a re-analysis of the deposited data

How the results depend on the processing

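The 2 members past 2-fold lower in the acinar tumor became 1 with a pseudocount of 5 and 1 with a filter of 5 scaled counts. In each case HEY1, which rests on 6 and 25 fragments, was lost, while NOTCH3 stayed past 2-fold (log2 ratio -1.90 with a pseudocount of 5). With a pseudocount of 0.1 the members past 2-fold lower in the tumors against the cultures were 3 in place of 2, with NRARP added. Counts of members past 2-fold were otherwise the same under all alternatives run. Counts over all genes moved by over 1.5 times as follows. With a pseudocount of 0.1, 478 genes were higher and 692 lower in the acinar tumor, against 277 and 357 as reported, and 192 higher and 522 lower in the mix culture, against 92 and 234. With a pseudocount of 5 the counts were 114 and 101 for the acinar tumor, 33 and 73 for the mix culture, and 864 and 774 for the tumors over the cultures, against 1408 and 1197. With a filter of 5 scaled counts 203 genes were lower in the acinar tumor. Scaling to equal totals or by upper quartile shifted the median log2 ratio of all genes by -0.04 to -0.01 within the tumors and within the cultures, and by -0.07 to 0.03 in the 4 ratios of a tumor over a culture. Using the longest transcript, added after seeing the data, put the NOTCH3 share per length at 33.7% in the solid tumor, 26.1% in the mix and 17.7% in the single culture, against 39.0%, 31.4% and 21.7% with joined exons. No paired analysis was possible because each group has 1 library. Depth limits DLL1, NRARP and HEY1, whose highest level in a tumor is 4, 8 and 25 fragments.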

Other observations

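The 5 genes whose levels over the 4 libraries were most like those of NOTCH3, by distance of centred log2(scaled count + 1) among 11944 genes, were KLHL23 (distance 0.78), CD74 (0.79), NR0B1 (0.80), ISYNA1 (0.81) and IGFBP3 (0.87). Over 4 libraries such likeness is a description only. CD74, the invariant chain of HLA class II, had 0.620 scaled counts in the acinar tumor, and 3.50 in the solid tumor, and at 10.1 in the mix and 6.93 in the single culture. IGFBP3, encoding a binding protein of insulin-like growth factors, was at 907 in the acinar and 2686 in the solid tumor, and at 3975 in the mix and 4788 in the single culture. KLHL23, ISYNA1 and IGFBP3 had fractional values in at least 1 library and are uncertain.

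Of 8 genes reported as Notch targets in other tissues, 6 were measured between the tumors. Past 2-fold were 0, against 4.54% of all genes in either direction. Between the cultures 8 were measured and CDKN1A, a cell cycle inhibitor gene, was the 1 past 2-fold, against 2.42% of all genes in either direction. CDKN1A was at 125 in the mix and 254 in the single culture. Between tumors and cultures 8 were measured, and 0 were past 2-fold higher and 1 lower in all 4 ratios, against 9.67% and 8.22% of all genes. That gene was SNAI2, a transcriptional repressor known from epithelial-mesenchymal transition, with 3 fragments in the acinar and 0 in the solid tumor, against 62 in the mix and 38 in the single culture. SOX9, an epithelial progenitor factor gene that was not past 2-fold in all 4 ratios, was at 179 in the acinar and 149 in the solid tumor, against 50.7 in the mix and 83.5 in the single culture, and both genes were named after their values were seen.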
